A study of Saccharomyces cerevisiae with 12 samples.

Results

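Wild-type yeast cultured in medium that a strain lacking CHO2 had already used was compared with wild-type yeast cultured in medium that wild-type cells had used. The comparison addressed whether a slow-growing strain alters its medium enough to change gene expression in cells that carry no mutation. It rested on 4 of the 12 spotted microarrays of the series, chosen by the medium in their labels, with 2 arrays of cho2 medium and 2 of the wild-type medium of the same set. In both groups the cells that gave the RNA were BY4742, a MAT alpha laboratory strain, labelled as wild type, so the deletion was present only in the cells that had made the medium. In both groups the medium was synthetic complete medium with 2% glucose, the first culture had lasted 2 doublings and had been spun and filtered out, and the second culture lasted another 2 doublings. Each array set a sample in 1 dye against a common wild-type reference RNA in the other dye. On the first array of each group the sample was labelled with Cy3 and on the second with Cy5. The deletion was represented by a single strain, and the sources differ on whether the arrays of a group came from separate cultures or from the same RNA relabelled, so n counts arrays and the p-values measure only the spread between arrays, which may be technical.

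CHO2 encodes the methyltransferase that adds the first methyl group to phosphatidylethanolamine, and OPI3 encodes the enzyme that adds the following ones to give phosphatidylcholine, with S-adenosylmethionine as the methyl donor. Yeast can also make phosphatidylcholine through the Kennedy pathway, from choline taken up by the transporter Hnm1. Many genes of both routes are activated by the Ino2-Ino4 factor and repressed by Opi1, which responds to phosphatidic acid and so to the supply of inositol and choline. The expression of these genes can therefore respond to lipid precursors that a medium gains or loses, which were not measured here.

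The 4 arrays had median intensities of 185 to 264 in Cy5 and 170 to 190 in Cy3, over backgrounds of 48 to 50 and 43 to 47. Between 74.8% and 78.6% of the gene spots exceeded 2 times their background, 2 to 14 spots per array had an intensity above 32768, and duplicate spots differed by a median of 0.025 to 0.029 on the log2 scale. All levels given here are log2 ratios of sample over reference after background correction and loess. Across probes, which are not independent replicates, the first arrays of cho2 and wild-type medium correlated at r = 0.962 and the second arrays at r = 0.838. The 2 arrays of cho2 medium correlated at 0.776 and those of wild-type medium at 0.708, so arrays of the same dye resembled each other more than arrays of the same medium. Of the mating-type markers, all 6 alpha-specific probes lay above 2 times background, from 7.76 times for MATALPHA1 to 159 times for the pheromone gene MF(ALPHA)1, and all 7 a-specific probes lay below it, at 1.18 to 1.91 times. LEU2, LYS2 and URA3, deleted in BY4742, stood at 1.09, 1.81 and 1.05 times background, and HIS3 at 2.81 times.

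Against the reference, both conditioned media gave nearly the same profile. The mean of the 4 arrays lay more than 0.5 from 0 on the log2 scale for 116 probes, 95 of them higher and 21 lower than in the reference. For these probes the median distance from the reference was 0.74, while the median distance between the media was 0.076 and the largest 0.25. The biotin synthesis gene BIO3 stood at 1.38 and 1.39 on the arrays of cho2 medium and at 1.35 and 1.42 on those of wild-type medium. BIO2, which makes biotin from its precursor, stood at 0.98 and 0.91 against 1.00 and 0.96. The siderophore transporter gene SIT1 stood at -1.98 and -2.11 against -1.89 and -2.00, and ENB1, another siderophore transporter gene, at -1.39 and -1.44 against -1.41 and -1.45. The levels of all 4 genes overlapped between the media. The shared distance from the reference belongs to both groups and was not part of the comparison.

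**Figure D1:**
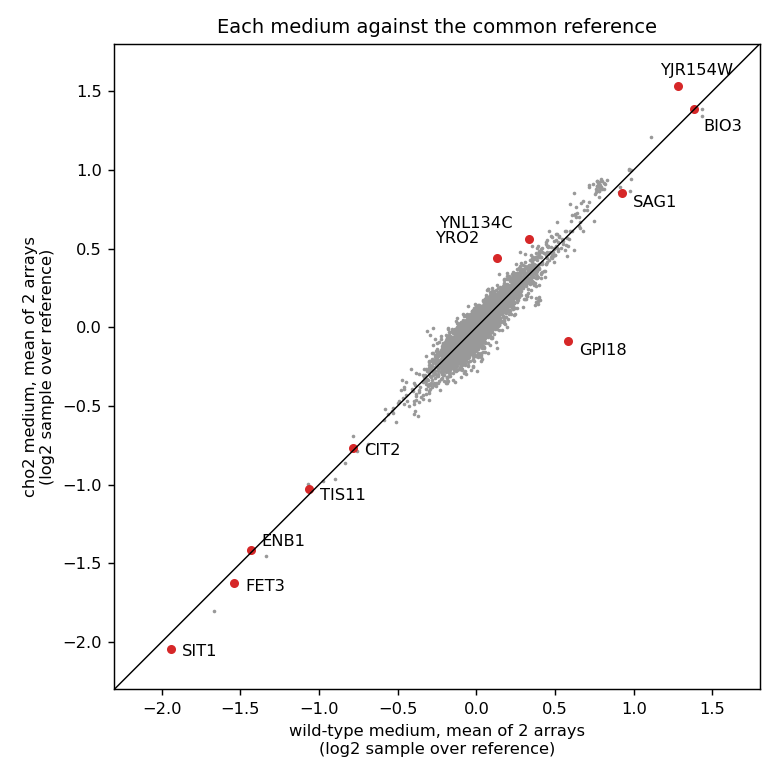
Mean log2 ratio of sample over reference in cho2 medium (vertical axis) against that in wild-type medium (horizontal axis), each the mean of 2 arrays, for all 6388 gene probes, with some genes marked in red and the line of equality in black. Genes far from the reference, such as SIT1 and BIO3, lie close to the line, and GPI18 is the probe farthest from it.

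No gene passed the test between cho2 and wild-type medium. Limma called 0 of 6388 probes (0%) after Benjamini-Hochberg adjustment, and the smallest adjusted p was 1.00. An unadjusted p under 0.05 was found for 126 probes (1.97%), fewer than the 319.4 that this limit gives by chance, 56 of them higher in cho2 medium (0.877%) and 70 lower (1.1%). This count ran from 32 to 425 with 1 array left out and reached 833 with median centring, so it crossed the chance number. Fitted differences ranged from -0.67 to 0.31, with 90% of them between -0.10 and 0.088, and they divided into 3179 higher (49.8%) and 3209 lower (50.2%). The median SE of a difference was 0.049. The 95% interval lay within 1.2-fold either way for 5666 probes (88.7%) and within 1.5-fold for 6372 (99.7%). The offset in the background correction draws ratios toward 0, most strongly for dim spots. For the 1487 probes (23.3%) with a signal under 2 times background, the interval therefore does not bound the change in RNA. Brighter probes are affected less but not spared, so their intervals bound the measured ratio rather than the change in RNA.

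The difference between the media could be read separately in each dye, since no array was shared between the comparison of the first arrays and that of the second. Both differences were positive for 1479 probes (23.2%), both negative for 1498 (23.5%), and of opposite sign for 3411 (53.4%). Across probes they correlated at r = -0.020 (Spearman's rank correlation -0.059), and at r = -0.012 over the 2593 probes with a signal above 5 times background. The SD of the difference was 0.054 in Cy3, where 25 probes differed by more than 0.2, and 0.10 in Cy5, where 393 did. Both differences exceeded 0.2 in the same direction for 7 probes and in opposite directions for 2. The 7 included YNL134C, YJR154W and YRO2, all higher in cho2 medium.

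**Figure D2:**
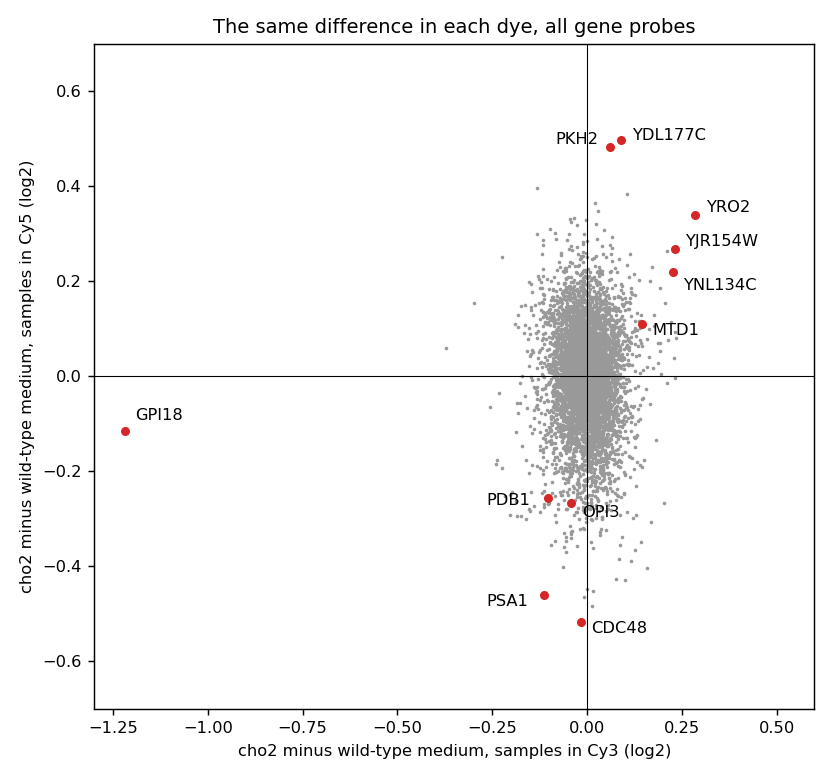
Log2 difference of cho2 minus wild-type medium between the first arrays (samples in Cy3, horizontal axis) and between the second arrays (samples in Cy5, vertical axis) for all 6388 gene probes, with some genes marked in red. The cloud is wider along the vertical axis and has no slope (r = -0.020), while YNL134C, YJR154W and YRO2 lie apart in the upper right and GPI18 at the far left.

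The gene with the smallest p was YNL134C, which encodes an aldehyde reductase. It stood at 0.57 and 0.55 on the arrays of cho2 medium and at 0.34 and 0.33 on those of wild-type medium. The groups did not overlap, and the arrays within a group differed far less than the groups. The difference was 0.22 ± 0.044 (SE; all differences given compare 2 arrays with 2), with a 95% interval of 0.12 to 0.32 and an adjusted p of 1.00 in limma. In the other conditioned media of the series its difference from the wild-type medium of the same set was 0.022 ± 0.044 for bur2 medium, which shares that wild-type medium, 0.038 ± 0.044 for cbf1 medium and 0.18 ± 0.044 for npl3 medium, each named after the gene deleted in the strain that had used it.

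YJR154W, an uncharacterised gene far above the reference in both media, stood at 1.51 and 1.55 in cho2 medium and at 1.28 and 1.29 in wild-type medium. It differed by 0.25 ± 0.072, without overlap. Against the same wild-type medium, bur2 medium differed by 0.15 ± 0.072 for this gene. In the wild-type medium of the other set it stood at 1.38 and 1.46, above both arrays of this wild-type medium. YRO2, which encodes a membrane protein related to Hsp30, had the largest difference upward, 0.31 ± 0.12. It stood at 0.28 and 0.60 against -0.00049 and 0.26, so that the groups overlapped across the dyes although each dye gave a similar difference. APL2, the large subunit of the AP-1 clathrin adaptor, stood at 0.085 and 0.072 against -0.028 and -0.083 and differed by 0.13 ± 0.034, while APL6, a large subunit of the AP-3 adaptor, differed by -0.092 ± 0.038. MTD1, a dehydrogenase of folate one-carbon metabolism, stood at 0.34 and 0.28 against 0.20 and 0.17 and differed by 0.13 ± 0.041. PFK27, which makes the glycolytic activator fructose 2,6-bisphosphate, stood at 0.47 and 0.22 against 0.35 and 0.033 and differed by 0.15 ± 0.049. The values of APL2 and MTD1 did not overlap between the media, and those of PFK27 did.

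The other genes among the 12 higher ones with the smallest p had differences of similar size. They were the mitotic exit inhibitor gene BFA1 (0.13 ± 0.033), the chromatin remodelling gene IES5 (0.12 ± 0.039), the hexose transporter gene HXT16 (0.0995 ± 0.031), BFR1, whose product binds mRNA on polysomes (0.18 ± 0.058), the replication helicase gene MCM7 (0.13 ± 0.044), the glycosyltransferase gene GNT1 (0.18 ± 0.064) and the endosomal sorting gene VPS25 (0.12 ± 0.044). BFA1 and HXT16 were dim, at 1.86 and 1.87 times background, and HXT16 shares nearly all of its sequence with other hexose transporter genes, so its probe may read those as well. Of the 12 genes, 6 had both arrays of cho2 medium above both of wild-type medium, against 486 of all probes (7.61%), and in 10 the difference was larger between the second arrays. These genes were picked by p, so such counts describe them and test nothing.

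The 12 lower genes with the smallest p were chosen in the same way. PDB1, a subunit of pyruvate dehydrogenase, stood at -0.10 and -0.23 in cho2 medium and at 0.0036 and 0.024 in wild-type medium, a difference of -0.18 ± 0.050. CYS3, which makes cysteine from cystathionine, stood at -0.38 and -0.30 against -0.26 and -0.15 and differed by -0.14 ± 0.041. ATO3, an ammonium exporter gene, stood at -0.62 and -0.45 against -0.51 and -0.27 and differed by -0.14 ± 0.042. GDH1, which assimilates ammonium into glutamate, differed by -0.12 ± 0.040. The arrays of PDB1 and CYS3 were separated between the media, and those of ATO3 overlapped.

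The others included the Puf-family RNA-binding gene JSN1 (-0.16 ± 0.047), the ribosomal protein genes RPL40A (-0.12 ± 0.039) and RPL28 (-0.10 ± 0.035), the cell wall glucanosyltransferase gene GAS1 (-0.14 ± 0.047), the uncharacterised YKR070W (-0.13 ± 0.044), the ergosterol synthesis scaffold gene ERG28 (-0.11 ± 0.036) and STT3, a subunit of oligosaccharyltransferase (-0.11 ± 0.036). RPL40A has a near-identical paralog that its probe may read. Of the 12 lower genes, 8 had both arrays of cho2 medium below both of wild-type medium, against 597 of all probes (9.35%), and in 11 the difference was larger between the second arrays.

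The largest differences mostly came with uneven values within a group. GPI18, a mannosyltransferase gene of the membrane anchor glycosylphosphatidylinositol (GPI), was at 1.15 on the first array of wild-type medium, but at 0.020 on the second and at -0.073 and -0.095 in cho2 medium. Its difference of -0.67 ± 0.27 had a 95% interval of -1.29 to -0.042. Without the second wild-type array limma called it, at -1.26 (adjusted p = 0.0047), but wild-type medium then rested on the array with the outlying value alone, and the spread behind this p came from the other groups. RIF2, a telomere gene, stood at 0.27 and -0.36 in cho2 medium and at 0.16 and -0.75 in wild-type medium, and its difference of 0.25 ± 0.17 became -0.0027 when that second wild-type array was left out. The uncharacterised YDL177C (0.29 ± 0.17) and the kinase gene PKH2 (0.27 ± 0.16) also stood low on that array, at -0.70 and -0.68. These 3 genes were low on the second array of bur2 medium as well, at -0.61 for RIF2, -0.43 for YDL177C and -0.51 for PKH2.

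The other large differences downward came mainly from the second array of cho2 medium. CDC48, an ATPase of protein degradation, stood at 0.12 and -0.39 against 0.13 and 0.13, a difference of -0.27 ± 0.17. UGP1 and PSA1, which make the sugar nucleotides UDP-glucose and GDP-mannose, differed by -0.24 ± 0.15 and -0.29 ± 0.12 and stood at -0.32 and -0.44 on that array. PHS1, a dehydratase gene of very long chain fatty acids, differed by -0.24 ± 0.16 and turned to 0.0079 without it. On the second array of bur2 medium CDC48, PSA1 and PHS1 stood low as well, at -0.20, -0.21 and -0.19, and UGP1 stood at -0.057.

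**Figure D3:**
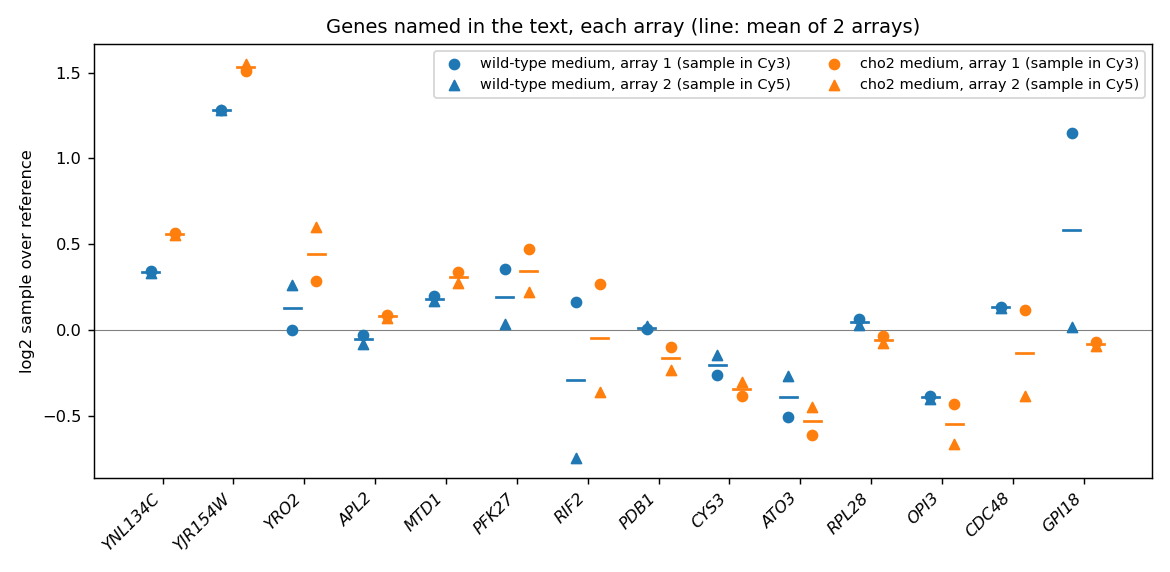
Log2 ratio of sample over reference for 14 genes on each of the 4 arrays, with wild-type medium in blue, cho2 medium in orange, circles for the first arrays (sample in Cy3), triangles for the second (sample in Cy5) and a line at the mean of 2 arrays. YNL134C and YJR154W separate the media on both arrays, whereas RIF2, CDC48 and GPI18 each have 1 or 2 arrays far from the rest.

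The phospholipid genes, to whose pathway CHO2 belongs, showed no difference that passed the test. Of 33 probes, 0 were called and 1 had an unadjusted p under 0.05 (3.03%, against 1.97% of all probes). Of the 33, 13 were higher and 20 lower in cho2 medium, with a median of -0.0088 beside -0.00019 over all probes, and a range of -0.15 to 0.093. Both dyes gave a lower value for 12 of them (36.4%, against 23.5% of all probes) and a higher value for 3 (9.09%, against 23.2%). The 95% interval lay within 1.2-fold for 26 of the 33 and within 1.5-fold for all 33, and 3 had a signal under 2 times background.

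CHO2 itself, intact in these cells, stood at -0.36 and -0.084 in cho2 medium and at -0.33 and -0.19 in wild-type medium. The difference was 0.038 ± 0.059 with a 95% interval of -0.098 to 0.17. OPI3 had the largest difference of the list, -0.15 ± 0.093, with -0.43 and -0.67 against -0.39 and -0.40, so that its second array of cho2 medium stood apart from the other 3. SCS2, an endoplasmic reticulum protein that tethers the repressor Opi1, was the member with an unadjusted p under 0.05. It stood at -0.41 and -0.21 against -0.29 and -0.066 and differed by -0.14 ± 0.057, with overlap between the groups and similar differences in both dyes. The differences of INO2, INO4 and OPI1, the regulators themselves, ranged from -0.032 to 0.0090.

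In the Kennedy pathway, ECT1, which makes CDP-ethanolamine, stood at 0.11 and 0.16 in cho2 medium and at 0.041 and 0.064 in wild-type medium, a difference of 0.081 ± 0.036 without overlap. Against the same wild-type medium ECT1 differed by 0.10 ± 0.036 in bur2 medium, so the difference was not particular to cho2 medium. The wild-type medium of the other set stood at 0.12 and 0.14. PCT1, the corresponding enzyme of the choline branch, differed by -0.067 ± 0.050, and EPT1, which completes the ethanolamine branch, by -0.054 ± 0.061. The choline transporter gene HNM1 stood at -0.29 and -0.018 against -0.28 and -0.18 and differed by 0.074 ± 0.064, with -0.010 in Cy3 and 0.16 in Cy5. INO1, the inositol synthase gene repressed when inositol is supplied, was dim at 1.93 times background and stood at -0.26 and -0.25 against -0.26 and -0.16.

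Of the genes that lead from CDP-diacylglycerol to the phospholipids, the phosphatidylserine decarboxylase gene PSD2 was highest at 0.093 ± 0.060 and the phosphatidylinositol synthase gene PIS1 lowest at -0.076 ± 0.041. Of the 8 genes of lipid turnover, 6 were lower, among them the phospholipase B gene PLB2 at -0.10 ± 0.076.

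**Figure D4:**
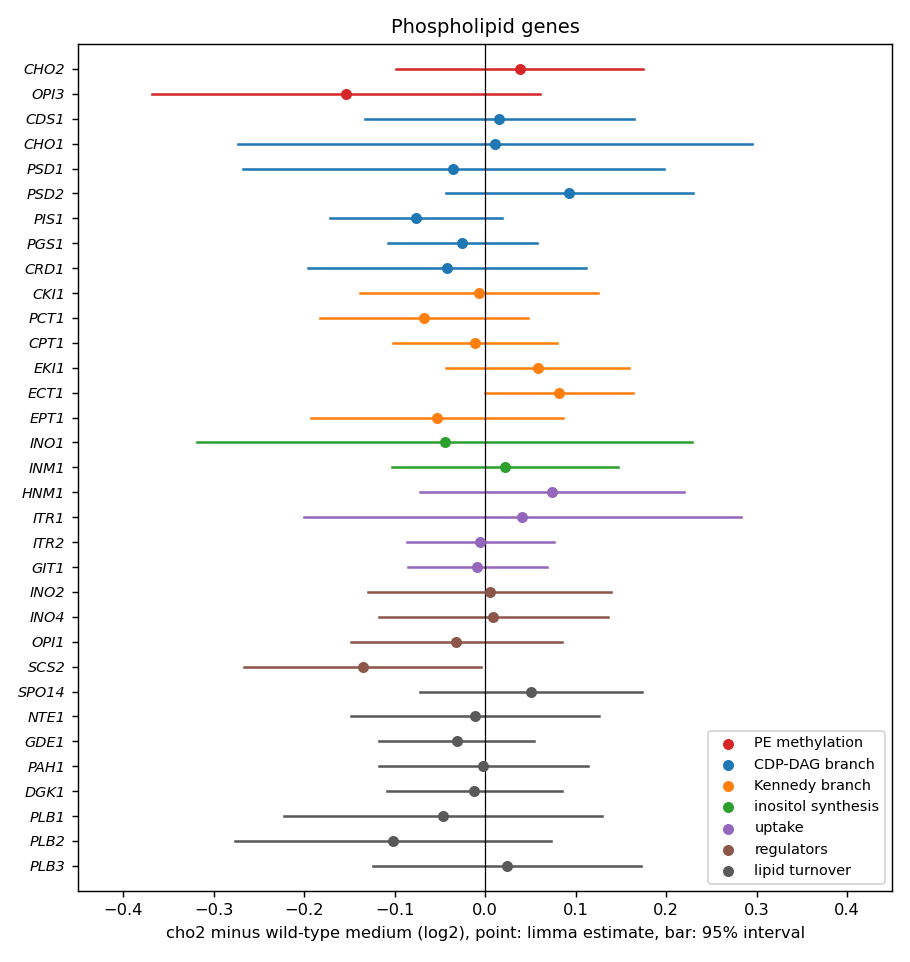
Log2 difference of cho2 minus wild-type medium for the 33 phospholipid probes, in colours by role, with points for the limma estimate and bars for its 95% interval (2 arrays per group). The intervals of all genes except SCS2 include 0, and none reaches beyond 0.37 in either direction.

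The genes that supply and use methyl groups and sulfur were evenly divided. Of 30 probes 15 were higher and 15 lower, with a median of -0.0011 and 8 probes under 2 times background. Apart from CYS3, the methionine permease gene MUP3 had the smallest p, at 0.098 ± 0.040, with a dim probe at 1.75 times background, followed by the cystathionine beta-lyase gene STR3 at 0.11 ± 0.065. Of the 10 genes that make or consume S-adenosylmethionine, 7 were lower, with a median of -0.013 and none at an unadjusted p under 0.05.

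The fatty acid and sterol genes had the lowest median of the 32 gene lists, -0.048 over 35 probes. The 23 sterol genes had a median of -0.054, with 17 lower and 6 higher. In both dyes 13 of them were lower, against 23.5% of all probes, and 4 were higher. HMG2, one of the enzymes that make mevalonate, stood at -0.16 and -0.34 in cho2 medium and at -0.042 and -0.064 in wild-type medium, a difference of -0.19 ± 0.075 without overlap. ERG11, the target of azole drugs, differed by -0.16 ± 0.083. In the wild-type medium of the other set HMG2 stood at -0.19 and -0.20 and ERG11 at -0.36 and -0.20. For both genes these values lay below both arrays of the wild-type medium compared here. The median sterol difference was -0.017 in Cy3 and -0.085 in Cy5. The 12 fatty acid genes divided evenly, from PHS1 at the low end to 2 genes above 0.1, among them the fatty acid elongation gene IFA38 at 0.12 ± 0.046. None of the 35 was called.

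Purine and one-carbon genes had the highest median, 0.059 over 18 probes, and were the list with a median over 0.05. In both dyes 10 were higher, against 23.2% of all probes, and 1 was lower. After MTD1, the adenine synthesis gene ADE2 stood at 0.057 and 0.083 against -0.091 and 0.070 and differed by 0.081 ± 0.050. ADE17, which acts late in the pathway, differed by 0.13 ± 0.085. ADE3, which interconverts folates, went the other way at -0.15 ± 0.10, with -0.33 on the second array of cho2 medium. The list median was 0.035 in Cy3 and 0.071 in Cy5. The guanine branch list, whose 6 probes include the uracil salvage gene FUR1, had a median of 0.037, made of -0.026 in Cy3 and 0.086 in Cy5.

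Of the 56 probes of amino acid biosynthesis genes 34 were lower and 22 higher, with a median of -0.028. In both dyes 24 were lower (42.9%, against 23.5% of all probes) and 7 higher (12.5%, against 23.2%). The 11 branched-chain genes had the lowest median of the branches, -0.057, with 9 lower, and the 6 histidine genes the highest, 0.023, with 5 higher. The histidine median was -0.039 in Cy3 and 0.095 in Cy5. At an unadjusted p under 0.05 there were 4 lower and 1 higher (8.93%, against 1.97% of all probes), and none was called. GLT1, which makes glutamate by another route than GDH1, differed by -0.10 ± 0.038, and by -0.097 ± 0.038 in bur2 medium against the same wild-type medium. CPA1, which starts arginine synthesis, stood at -0.020 and -0.098 against 0.030 and 0.12 and differed by -0.13 ± 0.046. The histidine gene HIS7 differed by 0.099 ± 0.039. The pyruvate dehydrogenase and citric acid cycle genes, apart from PDB1, had members such as fumarase, FUM1, at -0.12 ± 0.057, and a list median of -0.015 over 24 probes.

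Genes that follow growth rate had medians close to 0 beside their spread. Ribosome biogenesis genes had a median of 0.019 over 55 probes, with 30 higher and 25 lower, and 0 at an unadjusted p under 0.05. Among them the RNA helicase gene RRP3 differed by 0.083 ± 0.039 and the snoRNP gene NOP58 by 0.094 ± 0.056. The 35 probes of cytosolic ribosomal proteins, the brightest list with a median of 204 times background, had a median of -0.018. At an unadjusted p under 0.05 there were 4, all lower (11.4%, against 1.97% of all probes), and none was called. Of these, RPL29 differed by -0.21 ± 0.082 and the stalk protein gene RPP0 by -0.11 ± 0.041, beside RPL28. The 40 genes induced in general stress had a median of -0.022, with 28 lower, from 0.016 in Cy3 to -0.022 in Cy5. HSP31, a chaperone gene, differed by 0.13 ± 0.049 and YGP1, a secreted glycoprotein gene, by 0.13 ± 0.074. The spread of the stress genes was wide, with a median SE of 0.13, and the 95% interval lay within 1.2-fold for 12 of the 40.

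Lists that read the supply of nutrients gave medians between -0.034 and -0.011, and none of their members was called. The iron regulon had a median of -0.017 over 28 probes, with SIT1 at -0.10 ± 0.051. The biotin genes had a median of -0.034 over 6, with the biotin-protein ligase gene BPL1 at 0.097 ± 0.057 and the transporter gene BIO5 at -0.087 ± 0.063. The phosphate genes had a median of -0.011 over 14, with the cyclin-dependent kinase inhibitor gene PHO81 at 0.11 ± 0.079 and the vacuolar polyphosphate gene VTC1 at -0.12 ± 0.073. The zinc genes had a median of -0.029 over 10, with the membrane protein gene IZH4 at -0.071 ± 0.033 and the alcohol dehydrogenase gene ADH4 at -0.14 ± 0.075. The thiamine genes had a median of -0.028 over 14, with the thiazole synthesis gene THI4 at -0.060 ± 0.034, which turned to 0.061 with median centring, and the transporter gene THI7 at -0.19 ± 0.12. The whole glucose list had a median of -0.018 over 30 probes. Its 20 repressed genes had a median of -0.021 with 16 lower, and invertase, SUC2, stood at -0.078 and -0.14 against -0.0018 and 0.060, a difference of -0.14 ± 0.059. The 10 hexose transporter probes of the list, which did not include HXT16, had a median of 0.0091, with 6 higher, and the lowest was HXT2 at -0.16 ± 0.090. Several of these genes were dim, with 9 of 30 glucose probes and 6 of 14 phosphate probes under 2 times background.

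Of the remaining lists, the G2/M genes had a median of 0.044 over 14 probes, with the anaphase activator gene CDC20 at 0.079 ± 0.050. The M/G1 genes had one of 0.023 over 19, with the daughter-cell repressor gene ASH1 at 0.14 ± 0.054. The G1/S genes had a median of -0.0096 over 22, with the DNA polymerase gene POL1 at -0.070 ± 0.034. Histone genes had a median of -0.040 over 10, although HHT2 differed by 0.12 ± 0.053 and HTB2 by -0.094 ± 0.046. The 17 genes of protein folding in the endoplasmic reticulum had a median of 0.020, although the disulfide isomerase gene PDI1 differed by -0.14 ± 0.057. The 32 proteasome probes had a median of -0.0015, with RPN9 at 0.11 ± 0.043 and SCL1 at -0.12 ± 0.051. The 30 respiratory chain probes had a median of 0.010, with COX6 at 0.10 ± 0.046 and ATP2 at 0.075 ± 0.035. Over all 32 lists, medians ran from -0.048 to 0.059. They had opposite signs in the 2 dyes for 16 lists, were positive in both for 6 and negative in both for 10.

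**Figure D5:**
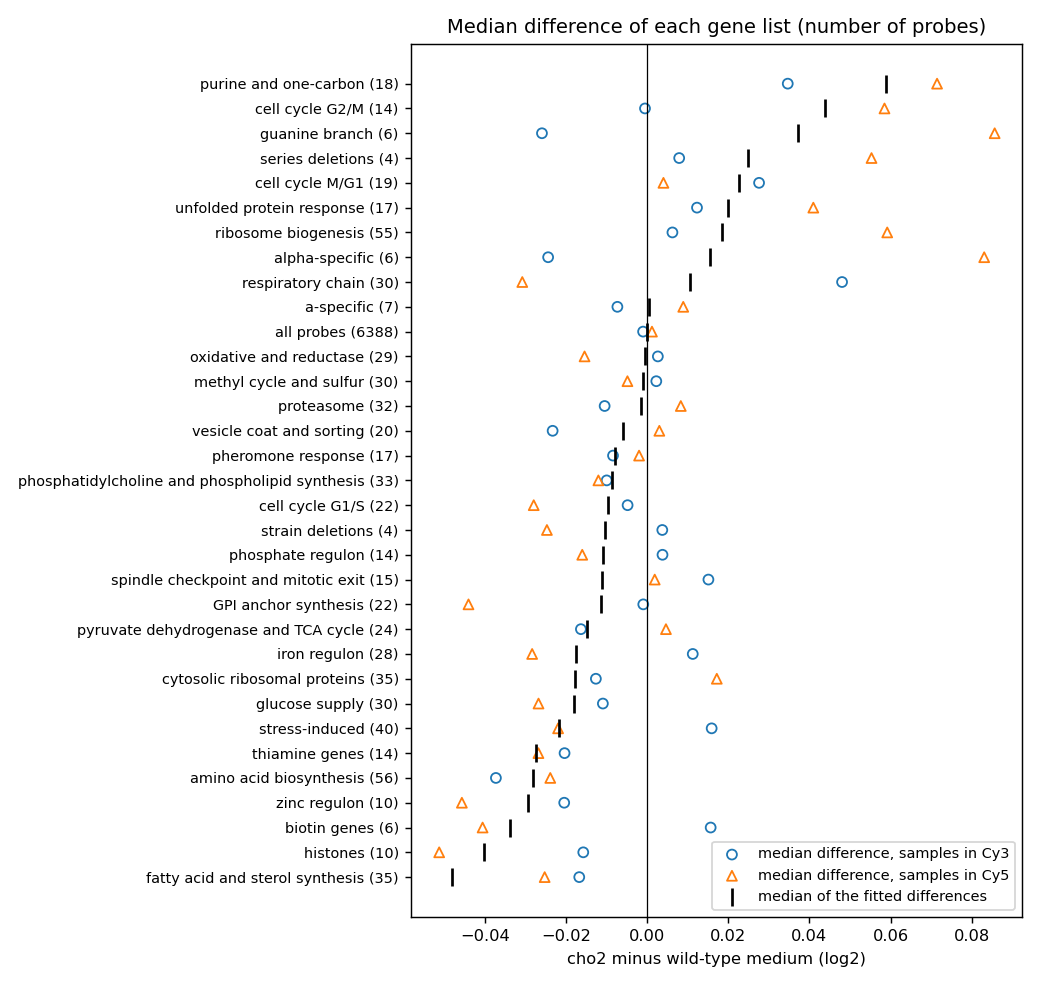
Median log2 difference of cho2 minus wild-type medium for each gene list and for all probes, with the number of probes in brackets, as circles between the first arrays (samples in Cy3), triangles between the second (samples in Cy5) and black marks for the median of the fitted differences. The medians lie between -0.051 and 0.086, and the circle and the triangle fall on opposite sides of 0 for 16 lists.

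A second comparison set cho2 medium against bur2 medium, made by a strain lacking the kinase cyclin BUR2, and so did not use the wild-type arrays. Limma called 0 of 6388 probes (0%), with a smallest adjusted p of 0.519 and 532 probes at an unadjusted p under 0.05 (8.33%), of which 215 were higher (3.37%) and 317 lower (4.96%) in cho2 medium. This count ran from 155, without the second array of cho2 medium, to 720, without the first, and reached 1994 with median centring. MTD1 had the smallest p among the higher genes. It stood at 0.34 and 0.28 in cho2 medium and at 0.090 and 0.056 in bur2 medium, a difference of 0.24 ± 0.041, with wild-type medium between them. YNL134C differed by 0.20 ± 0.044, the glutathione peroxidase gene GPX2 by 0.22 ± 0.052, the mitotic kinesin gene CIN8 by 0.21 ± 0.042 and the ribosomal protein gene RPL38 by 0.19 ± 0.034. GPX2, CIN8 and RPL38 differed from wild-type medium by 0.065, 0.061 and 0.051, so more of their difference lay between bur2 and wild-type medium. Against wild-type medium, bur2 medium gave similar differences for genes such as GLT1 (-0.097), FUM1 (-0.12), YKR070W (-0.10), NOP58 (0.096), ATP2 (0.080) and MCM7 (0.090). For these genes the difference was not particular to cho2 medium, but both differences subtract the same wild-type arrays. A deviation of those arrays alone would give the same pattern, and this was not tested. PDB1 (-0.011), JSN1 (-0.011) and GAS1 (0.0071) had smaller differences in bur2 medium.

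Among the lower genes, NPL3, an mRNA export gene, stood at -0.00015 and -0.013 in cho2 medium and at 0.20 and 0.17 in bur2 medium, a difference of -0.19 ± 0.034. In wild-type medium it stood at 0.011 and -0.022, beside its values in cho2 medium. THI7 had the largest of these differences, -0.63 ± 0.12, with -0.042 and 0.044 against 0.80 and 0.46. CYS3 differed by -0.18 ± 0.041, CPA1 by -0.21 ± 0.046 and the calcium pump gene PMR1 by -0.20 ± 0.039. CYS3 and CPA1 were thus lowest in cho2 medium of the 3 media, and this comparison shares the arrays of cho2 medium with the first. BUR2, intact in these cells, stood at 0.31 and 0.62 in cho2 medium and at 0.28 and 0.33 in wild-type medium, a difference of 0.16 ± 0.073. The effect of cho2 medium was also compared with those of cbf1 and npl3 medium, each against the wild-type medium of its own set. Limma called 0 of 6388 probes in both, with 83 (1.3%) and 185 (2.9%) at an unadjusted p under 0.05.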

How the data were processed

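For each array the authors deposited the raw intensity of every spot and of its surroundings, in Cy5 and in Cy3. A second deposited table holds log2 ratios made without background subtraction, with loess per print tip and a correction of dye bias, and served as an alternative. Another holds the log2 ratios and p-values of the authors' own comparisons and was not used. The submitters' processing notes name limma 2.12.0. The members and gene lists were chosen with earlier results of these data known.

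Each array held 15552 spots, of which 12776 were 6388 gene probes in duplicate and 2776 were control spots, left out. With limma 3.58.1 (R 4.3.3), normexp with an offset of 50 removed the background and loess normalized each array. The labelled dyes gave the direction, sample over reference, and the mean of both spots was taken per probe. Over all 12 arrays, 6 group means and a dye term were fitted, with 5 residual degrees of freedom and a prior of 3.29. Tests were two-sided, and p-values were adjusted by Benjamini-Hochberg over all 6388 probes with 0.05 as the limit. The fit was also run on simulated data with independent noise on each array. That run could not test the effect of relabelled RNA or of correlated arrays.

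In the deposited log2 table the column of the first array of cho2 medium ran the other way (r = -0.913 with the scanner ratios, against 0.901 to 0.973 for the other 11), so it was turned. The column medians lay between -0.0026 and 0.0094. On the scanner values this array correlated at 0.602 to 0.962 with the other 11, so its labelled direction was kept. The description of the design puts the sample in Cy5 on the first hybridization without saying which array that was, and the channel labels were followed. The platform's annotation named 5326 probes and left 1062 unnamed, and no coordinates are given because the files name no genome build.

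Genes were named by a rule: the 12 higher and 12 lower with the smallest p whose difference had the same sign in both dyes, the 5 largest differences each way, CHO2 and the other deleted genes, the phospholipid genes, and from each other list at most 4 members, by smallest p. One of these genes is not reported here. As no probe passed against bur2 medium, the genes named there were chosen, after their values were seen, among the 12 with the smallest p each way. The alternatives were an offset of 10, no background subtraction, median centring, print-tip loess, the deposited table, a replicate block, no dye term, duplicate spots fitted apart, removal of the dimmest 25% of probes, fits on the 6 arrays of the set or the 4 arrays compared, all 4 wild-type arrays, and each array left out. The number of arrays limits the precision.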

Additional observations from a re-analysis of the deposited data

How the results depend on the processing

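Between cho2 and wild-type medium limma called 0 probes under each alternative except when all 4 wild-type arrays served as the control, where it called 8, and 0 to 1 with each array left out, the 1 being GPI18. The 8 were YNL134C, higher at 0.31 (adjusted p = 0.032), and SIT1 (-0.87), FTR1, ARN1, SMF3, TIS11, FET3 and ENB1, lower. Only the wild-type arrays changed in that setting, and the control then included the difference between the 2 sets. SIT1 stood at -0.46 and -0.37 in the added wild-type medium, against -1.89 and -2.00 in that of the cho2 set. From the latter alone, cho2 medium differed by -0.10 for SIT1. Against bur2 medium limma called 3 probes with the deposited table, 46 with duplicate spots kept apart (8 of them higher, and duplicate spots add no arrays), and 0 to 9 with each array left out: 9 without the first array of bur2 medium and 3 without the second. With the replicate number as a block within each set the counts were 0 and 0, with 259 and 734 probes at an unadjusted p under 0.05. The number coincides with the dye and the labels do not pair the arrays. Deviations of same-numbered arrays of cho2 and wild-type medium correlated at 0.616, and at -0.117 once the dye was removed. For cho2 and bur2 medium the values were 0.817 and 0.540. The counts at an unadjusted p under 0.05 ranged from 24 (no dye term) to 833 (median centring) against wild-type medium, and from 159 to 1994 under the same settings against bur2 medium. With each array left out they ranged from 32 to 425 and from 155 to 720.

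Of 92 genes followed, 77 kept their direction under each of the 16 alternatives that gave them a value. Without the dimmest probes 88 had one, and BFA1, HXT16, MUP3 and THI4 did not. Many of the 92 genes were picked by p or by size of difference on these same arrays. The count of 77 thus describes them and tests nothing. With the deposited table VPS25 turned to -0.0067, PKH2 to -0.12 and MF(ALPHA)1, at 0.19 otherwise, to -0.0082. With median centring CHO2 turned to -0.050, HNM1 to -0.00084, THI4 to 0.061 and ATP2 to -0.017, with loess per print tip CHO2 to -0.0041, and against all 4 wild-type arrays AGA1 from -0.11 to 0.040. With each array left out, CHO2 ranged from -0.058 to 0.13, PSD2 from -0.0077 to 0.19, ADE3 from -0.32 to 0.031, PHS1 from -0.48 to 0.0079, PHO81 from -0.022 to 0.25, BIO5 from -0.20 to 0.024, RIF2 from -0.0027 to 0.49 and YDL177C from -0.0043 to 0.59. The causes were not tested.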

Other observations

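Probes of the Ty1 retrotransposon, whose copies are nearly identical so that a probe reads many of them, were looked at after their values had been seen. YDR170W-A stood at 1.15 and 0.56 in cho2 medium and at 0.94 and 0.30 in wild-type medium, a difference of 0.24 ± 0.11 (SE, n = 2 arrays per group). YDR210C-C stood at 1.00 and 0.86 against 0.77 and 0.76, a difference of 0.16 ± 0.099, and YPR158W-A at 0.84 and 0.85 against 0.70 and 0.81, a difference of 0.090 ± 0.082. Against bur2 medium, a comparison that shares the arrays of cho2 medium, their differences were -0.18, -0.31 and -0.30. Neither comparison called them in limma (adjusted p = 1.00 for each against wild-type medium, and 0.726, 0.519 and 0.519 against bur2 medium), and they are not independent of each other. With duplicate spots kept apart limma called YDR210C-C and YPR158W-A against bur2 medium, and without the first array of bur2 medium it called YPR158W-A.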
